A study of Mus musculus with 27 samples.

Results

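The 10 genes described here encode enzymes and a transporter of thiol and antioxidant metabolism that are grouped with the transcription factor NRF2: Nqo1, Gclm, Gclc, Txnrd1, Srxn1, Prdx1, Slc7a11, Gsr, Sod2 and Cat. They were chosen by name, from 50559 genes in the table of counts, and all 10 were among the 13614 genes that passed the filter on low counts. Expression was measured by 3′ RNA-seq in macrophages grown from the bone marrow of age-matched female C57BL/6 mice of 3 to 4 months, either WT or TRAP1 KO (lacking the mitochondrial chaperone TRAP1). Bone marrow cells were matured with L929-conditioned medium and then either left unpolarized (Mφ, labelled M0) or given 24 h of IL-4, at 10 ng/mL (M2). All cells were then kept for 48 h in control medium (DMEM) or in medium conditioned by murine malignant peripheral nerve sheath tumor cells (MPNST-CM). The resulting 8 groups, Mφ or M2, control medium or MPNST-CM, WT or TRAP1 KO, each hold 3 libraries labelled batch 1, 24 in all. The sources name no animal for a replicate, so p-values measure the spread between libraries, which may be partly technical.

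NRF2, encoded by Nfe2l2, is held in the cytosol by KEAP1 and degraded there until electrophiles or oxidants modify KEAP1. NRF2 then enters the nucleus, pairs with a small MAF protein and binds antioxidant response elements near genes for glutathione synthesis, the thioredoxin system and quinone reduction, sites that BACH1 can occupy instead. Among the 10, Slc7a11 imports cystine, Gclc and Gclm form the enzyme that starts glutathione synthesis and Gsr regenerates glutathione, while Txnrd1, Prdx1 and Srxn1 belong to the thioredoxin and peroxiredoxin cycle. Nqo1 reduces quinones, and Sod2 in mitochondria and Cat in peroxisomes remove superoxide and hydrogen peroxide. Sod2 and Cat also answer to other transcription factors.

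Totals ran from 7037684 to 9089792 counts per library. Levels are given as CPM, counts scaled to the library's total, after TMM scaling, which corrects for differences in library composition. Trap1 was 10.4 to 18.8 CPM in every WT library and had 0 counts in all 12 TRAP1 KO libraries. Xist, transcribed from the inactive X chromosome, was 254 to 504 CPM in the WT libraries and at most 1.14 CPM in the TRAP1 KO ones although the mice are described as female, so genotype and Xist status cannot be told apart in any genotype comparison below. The 6 macrophage markers summed to 4931 to 7186 CPM per library, and 13 markers of neutrophils, lymphocytes, fibroblasts, Schwann lineage, endothelium and erythroid cells summed to 1.57 to 7.5 CPM. The 5 markers of IL-4 polarization (Arg1, Chil3, Retnla, Mrc1 and Mgl2) summed to 685 to 757 CPM in Mφ and 2695 to 3162 CPM in M2 in control medium, and in MPNST-CM to 1172 to 1350 CPM in WT Mφ, 2555 to 2674 CPM in TRAP1 KO Mφ and 4138 to 4658 CPM in M2. These sums hide differences between the markers. In TRAP1 KO against WT M2 in control medium Arg1 was 4.89 ± 0.704 CPM against 92.0 ± 7.29 CPM (-4.24 ± 0.25 on the log2 scale). Mgl2 (-2.30 ± 0.13) and Mrc1 (-0.43 ± 0.07) were also lower. Chil3 (0.01 ± 0.15, adjusted p = 0.971) and Retnla (0.18 ± 0.14, adjusted p = 0.418) did not pass. In such bulk samples, a change in the share of cells that express a gene and a change in RNA per cell cannot be told apart. Replicate 1 stood apart from replicates 2 and 3 in 5 groups, Mφ of both genotypes in both media and WT M2 in MPNST-CM. There squared differences in counts from it were 16 to 37.4 times what sampling noise gives (chi-square per degree of freedom). Between replicates 2 and 3 they were 2.11 to 3.42 times. Results for the 10 genes that change without these 5 libraries are given both ways. The other lists of genes were not examined without them. Another 3 libraries are labelled batch 2, 1 in control medium from WT Mφ and 2 from TRAP1 KO M2 (1 per medium), and they are left out of the values below unless named.

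RefSeq promoters (GRCm38.p6, 250 bases before to 50 after the annotated start, matched by symbol) were found for 8 of the 10 genes, all but Gclc and Gsr. The core of the antioxidant response element, TGACNNNGC, was searched on both strands and lay in the promoter of 4 of these 8 (Gclm, Txnrd1, Srxn1 and Prdx1), against 14% of 27025 genes and 12.4% of 32851 promoters. Those 4 promoters are printed because they hold the motif, with the matched letters in capitals (every match lay on the opposite strand, so the motif reads in reverse complement).
Gclm (chr3:122245307-122245606, plus strand): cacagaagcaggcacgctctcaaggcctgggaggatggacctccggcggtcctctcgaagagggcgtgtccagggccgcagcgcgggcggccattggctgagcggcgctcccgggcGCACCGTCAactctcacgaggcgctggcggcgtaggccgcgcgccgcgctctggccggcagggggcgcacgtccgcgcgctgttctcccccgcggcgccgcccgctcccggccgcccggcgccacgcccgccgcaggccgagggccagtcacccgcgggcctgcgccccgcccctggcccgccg
Txnrd1, the second of 3 annotated starts (chr10:82858956-82859255, plus strand): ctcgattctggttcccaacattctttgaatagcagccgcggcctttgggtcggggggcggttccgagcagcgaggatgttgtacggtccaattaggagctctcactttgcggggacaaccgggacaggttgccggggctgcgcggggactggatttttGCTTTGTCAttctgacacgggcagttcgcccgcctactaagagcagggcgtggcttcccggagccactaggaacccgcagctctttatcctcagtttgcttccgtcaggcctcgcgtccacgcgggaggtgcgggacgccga
Srxn1 (chr2:152105274-152105573, plus strand): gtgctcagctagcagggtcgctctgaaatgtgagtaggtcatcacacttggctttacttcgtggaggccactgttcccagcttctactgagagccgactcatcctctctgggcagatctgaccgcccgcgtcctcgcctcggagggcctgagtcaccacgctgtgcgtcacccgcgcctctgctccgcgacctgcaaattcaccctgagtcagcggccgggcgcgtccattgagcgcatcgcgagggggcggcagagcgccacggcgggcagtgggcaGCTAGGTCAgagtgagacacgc
Prdx1 (chr4:116685349-116685648, plus strand): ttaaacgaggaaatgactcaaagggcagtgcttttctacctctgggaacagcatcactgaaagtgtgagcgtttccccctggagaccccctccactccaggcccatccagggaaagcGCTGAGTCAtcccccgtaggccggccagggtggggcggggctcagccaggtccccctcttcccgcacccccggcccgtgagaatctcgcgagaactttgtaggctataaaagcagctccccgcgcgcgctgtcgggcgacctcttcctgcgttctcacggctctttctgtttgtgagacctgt
The match began 134 bases before the start of Gclm, 92 before that of Txnrd1, 133 before that of Prdx1 and 28 after that of Srxn1. In Prdx1 it overlapped the AP-1 motif TGACTCA (read here as TGAGTCA), which 5.2% of promoters hold, and in Srxn1 AP-1 motifs lay elsewhere in the window. The windows of Nqo1, Slc7a11, Sod2 and Cat did not hold the letters searched, which says nothing of sites outside them.

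**Figure D1:**
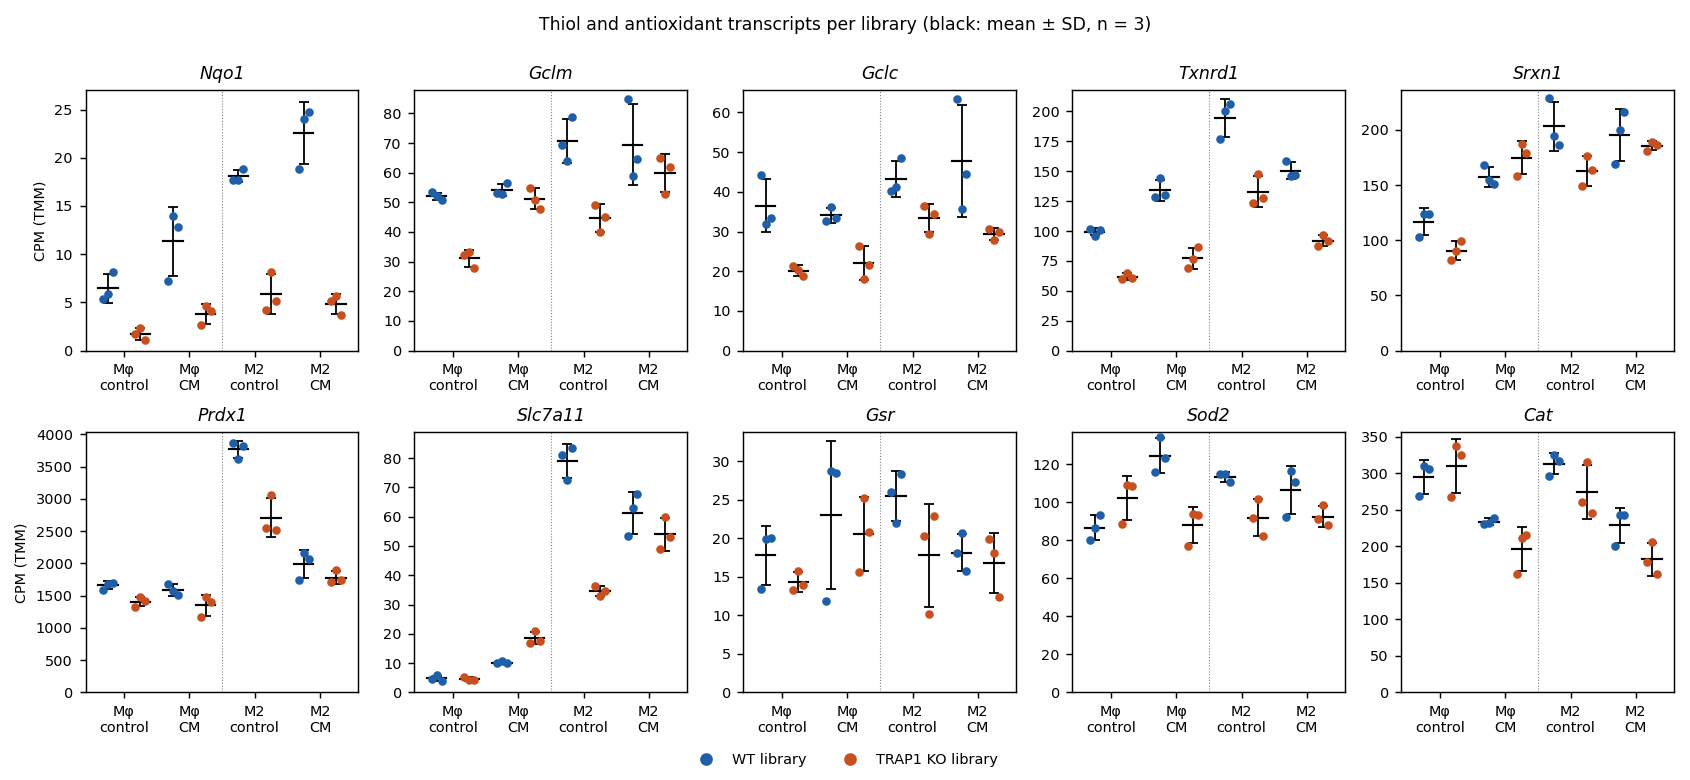
CPM of the 10 genes in each of the 24 libraries by group (x axis: Mφ or M2, control medium or MPNST-CM; y axis: CPM from 0; blue: WT, orange: TRAP1 KO; black: mean ± SD, n = 3). Slc7a11 is lowest in Mφ in control medium and highest in WT M2 in control medium, Nqo1 and Txnrd1 are lower in TRAP1 KO than in WT in each pair of groups, and Prdx1 is highest in M2 in control medium.

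Slc7a11, the cystine importer, varied most among the 10. In control medium its level was 4.54, 5.86 and 3.99 CPM in WT Mφ and 5.38, 4.19 and 4.34 CPM in TRAP1 KO Mφ. In WT M2 it was 81.1, 72.5 and 83.5 CPM and in TRAP1 KO M2 36.5, 33.1 and 34.5 CPM. The genotypes thus overlapped in Mφ and were apart in M2, where every WT library was above every TRAP1 KO library. Of all 13614 genes tested, the genotypes did not overlap for 31.7% in Mφ and 37.5% in M2 in control medium. In MPNST-CM they did not overlap for 46.1% in Mφ and 46.5% in M2. These shares also stand beside every gene below whose genotypes lay apart. In MPNST-CM the Slc7a11 level was 9.96, 10.6 and 10.0 CPM in WT Mφ and 17, 21 and 17.7 CPM in TRAP1 KO Mφ. In M2 in MPNST-CM it was 53.3, 62.8 and 67.7 CPM in WT and 48.9, 59.9 and 53 CPM in TRAP1 KO, and these libraries overlapped. From highest to lowest mean, the order was WT M2 control, WT M2 MPNST-CM, TRAP1 KO M2 MPNST-CM, TRAP1 KO M2 control, TRAP1 KO Mφ MPNST-CM, WT Mφ MPNST-CM and then the control Mφ of both genotypes, and of the neighbours only the second with the third and the last pair overlapped.

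Gclc and Gclm, the catalytic and modifier subunits of glutamate-cysteine ligase, spanned narrower ranges. Gclm in control medium was 53.4, 52 and 50.9 CPM in WT Mφ and 32.3, 33.2 and 27.7 CPM in TRAP1 KO Mφ. In M2 in control medium it was 69.3, 64 and 78.8 CPM in WT and 49.2, 39.9 and 45.1 CPM in TRAP1 KO. The genotypes were apart in both, while in MPNST-CM they overlapped in Mφ (54.1 ± 2.08 CPM in WT and 51.2 ± 3.53 CPM in TRAP1 KO, mean ± SD, n = 3) and in M2 (69.5 ± 13.7 CPM and 59.9 ± 6.39 CPM). Gclc was 44.2, 31.9 and 33.5 CPM in WT Mφ and 21.4, 20.4 and 18.7 CPM in TRAP1 KO Mφ in control medium. In MPNST-CM it was 32.7, 36.2 and 33.3 CPM in WT Mφ and 26.5, 18.1 and 21.7 CPM in TRAP1 KO Mφ. No library of TRAP1 KO Mφ reached the lowest WT Mφ library in either medium. In M2 in MPNST-CM Gclc was 63.4, 35.7 and 44.5 CPM in WT, where replicate 1 stood above the other two, and 30.7, 27.8 and 29.9 CPM in TRAP1 KO. Gsr, glutathione reductase, had group means from 14.3 ± 1.27 CPM in TRAP1 KO Mφ in control medium to 25.5 ± 3.2 CPM in WT M2 in control medium. Its libraries in WT Mφ in MPNST-CM were 11.9, 28.7 and 28.5 CPM, and each group overlapped its neighbour in the order of means.

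Of the thioredoxin and peroxiredoxin genes, Txnrd1, the cytosolic thioredoxin reductase, was 101, 96 and 101 CPM in WT Mφ and 59.6, 64.8 and 61 CPM in TRAP1 KO Mφ in control medium. In M2 in control medium it was 177, 201 and 206 CPM in WT and 124, 148 and 127 CPM in TRAP1 KO. In MPNST-CM the means were 134 ± 8.81 CPM and 77.2 ± 8.82 CPM in WT and TRAP1 KO Mφ and 150.4 ± 6.99 CPM and 92.1 ± 4.58 CPM in WT and TRAP1 KO M2. WT libraries lay above TRAP1 KO libraries in all of these pairs. Prdx1, a peroxiredoxin that reduces hydrogen peroxide through thioredoxin, was 1592, 1688 and 1703 CPM in WT Mφ and 3867, 3613 and 3812 CPM in WT M2 in control medium. In MPNST-CM it was 1682, 1571 and 1505 CPM in WT Mφ and 1738, 2155 and 2060.3 CPM in WT M2. The step between Mφ and M2 was thus smaller in MPNST-CM, and the same held in TRAP1 KO, with 1409 ± 75.3 CPM and 2707 ± 300.0 CPM in Mφ and M2 in control medium and 1348 ± 164 CPM and 1781 ± 101 CPM in MPNST-CM. The listed pseudogene Prdx1-ps had 0 counts in all libraries. Srxn1, sulfiredoxin, which restores overoxidized peroxiredoxins, was 103, 124 and 124 CPM in WT Mφ and 82.4, 90.1 and 99.3 CPM in TRAP1 KO Mφ in control medium. In MPNST-CM it was 168, 154 and 151 CPM in WT Mφ and 159, 187 and 179 CPM in TRAP1 KO Mφ. The genotypes were apart in control medium and overlapped in MPNST-CM.

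Nqo1, the quinone reductase often taken as a readout of NRF2, was 5.4, 5.86 and 8.2 CPM in WT Mφ and 1.75, 2.36 and 1.05 CPM in TRAP1 KO Mφ in control medium. In M2 in control medium it was 17.7, 17.7 and 18.8 CPM in WT and 4.2, 8.17 and 5.1 CPM in TRAP1 KO. In MPNST-CM it was 7.18, 13.9 and 12.8 CPM in WT Mφ and 2.62, 4.62 and 4.08 CPM in TRAP1 KO Mφ. WT M2 in MPNST-CM held the highest values, 18.9, 24 and 24.8 CPM, against 5.16, 5.65 and 3.67 CPM in TRAP1 KO M2. No WT library was as low as the highest TRAP1 KO library of the same cell type and medium. Cat, catalase, was lower in MPNST-CM than in control medium, with 269, 311 and 306 CPM in WT Mφ in control medium and 230.2, 233 and 239 CPM in MPNST-CM. The 4 control-medium groups had means from 274 ± 37.2 CPM to 313 ± 14.5 CPM and the 4 MPNST-CM groups from 182 ± 22.6 CPM to 234 ± 4.5 CPM. Sod2, the mitochondrial superoxide dismutase, was 80.2, 86.6 and 93.2 CPM in WT Mφ in control medium and 116, 134 and 123 CPM in MPNST-CM. In TRAP1 KO Mφ it was 88.8, 109 and 109 CPM in control medium and 77.3, 94.1 and 93.1 CPM in MPNST-CM. WT Mφ in MPNST-CM had the highest mean of the 8 groups and WT Mφ in control medium the lowest.

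The first comparison asked how M2 macrophages differed from Mφ. In control medium 7 of the 10 genes were higher in WT M2 and none lower, and Slc7a11 stood out with a 16.5-fold higher level (log2 fold change 4.05 ± 0.14, adjusted p = 3.5e-18, standard error, edgeR's quasi-likelihood test with Benjamini-Hochberg adjustment over all genes tested). Of all genes tested, 37.2% passed in this comparison at an adjusted p of 0.05, 19.1% higher and 18.1% lower. Nqo1 (1.47 ± 0.25, adjusted p = 3e-05), Prdx1 (1.18 ± 0.09, adjusted p = 7.3e-11), Txnrd1 (0.97 ± 0.09, adjusted p = 1.5e-09) and Srxn1 (0.80 ± 0.10, adjusted p = 5.3e-07) followed, with Gclm (0.44 ± 0.12) and Sod2 (0.39 ± 0.11) at smaller changes. Also in TRAP1 KO 7 genes were higher and none lower, where 28.5% of all genes passed, 15.6% higher and 12.9% lower. Slc7a11 was 7.44-fold higher (2.90 ± 0.15, adjusted p = 1e-14), Nqo1 rose by 1.76, Txnrd1 by 1.11, Prdx1 by 0.94, Srxn1 by 0.85, Gclc by 0.73 and Gclm by 0.52 on the log2 scale. Gclc passed in TRAP1 KO and not in WT (0.24 ± 0.16, adjusted p = 0.251), and Sod2 passed in WT and not in TRAP1 KO (-0.15 ± 0.11, adjusted p = 0.311), differences that were not tested. The median log2 fold change over the 10 genes was 0.66 in WT and 0.79 in TRAP1 KO, against -0.03 over all genes tested in both. Without the 5 replicates that stood apart, Gclc also passed in WT (0.41, adjusted p = 0.00558), and in TRAP1 KO 2 genes were lower, Sod2 (-0.24, adjusted p = 0.017) and Cat (-0.27, adjusted p = 0.00839). The share of mitochondrial mRNA was also higher in M2 in control medium (4.68% to 5.99% of counts) than in Mφ in control medium (2.84% to 3.60%), and its part in these results was not tested.

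In MPNST-CM the M2 and Mφ levels lay closer. In WT 6 genes were higher in M2 and none lower (all genes: 24.9% passed, 11.9% higher and 13% lower), led by Slc7a11 (2.59 ± 0.13, adjusted p = 1e-14) and Nqo1 (0.99 ± 0.23, adjusted p = 0.0021). Gclc, Gclm, Prdx1 and Srxn1 had changes of 0.31 to 0.49. In TRAP1 KO 2 were higher, Slc7a11 (1.54 ± 0.12, adjusted p = 3.3e-10) and Prdx1 (0.40 ± 0.09, adjusted p = 0.00388), with 11.2% of all genes past the threshold, 6.71% higher and 4.47% lower. In WT in MPNST-CM, Gclm no longer passed without WT Mφ in MPNST-CM replicates 1 or 2, or WT M2 in MPNST-CM replicate 1 (adjusted p from 0.0654 to 0.17). Gclc no longer passed without WT Mφ in MPNST-CM replicates 1 or 3, or WT M2 in MPNST-CM replicate 1 (adjusted p from 0.0686 to 0.204). Srxn1 no longer passed without WT Mφ in MPNST-CM replicates 2 or 3, or WT M2 in MPNST-CM replicates 2 or 3 (adjusted p from 0.0726 to 0.163). Prdx1 no longer passed without WT M2 in MPNST-CM replicate 2, or WT Mφ in MPNST-CM replicate 3 (adjusted p from 0.0536 to 0.0716). Without the 5 replicates that stood apart, Gclm (0.24, adjusted p = 0.13) and Gclc (0.27, adjusted p = 0.123) did not pass in WT. Gclc then passed in TRAP1 KO (0.58, adjusted p = 0.00123). With those 2 WT groups alone in the fit, Nqo1 and Slc7a11 were the 2 genes that passed, where 15.7% of all genes passed. On all 27 libraries Slc7a11 did not pass in TRAP1 KO in MPNST-CM (1.31, adjusted p = 0.103).

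**Figure D2:**
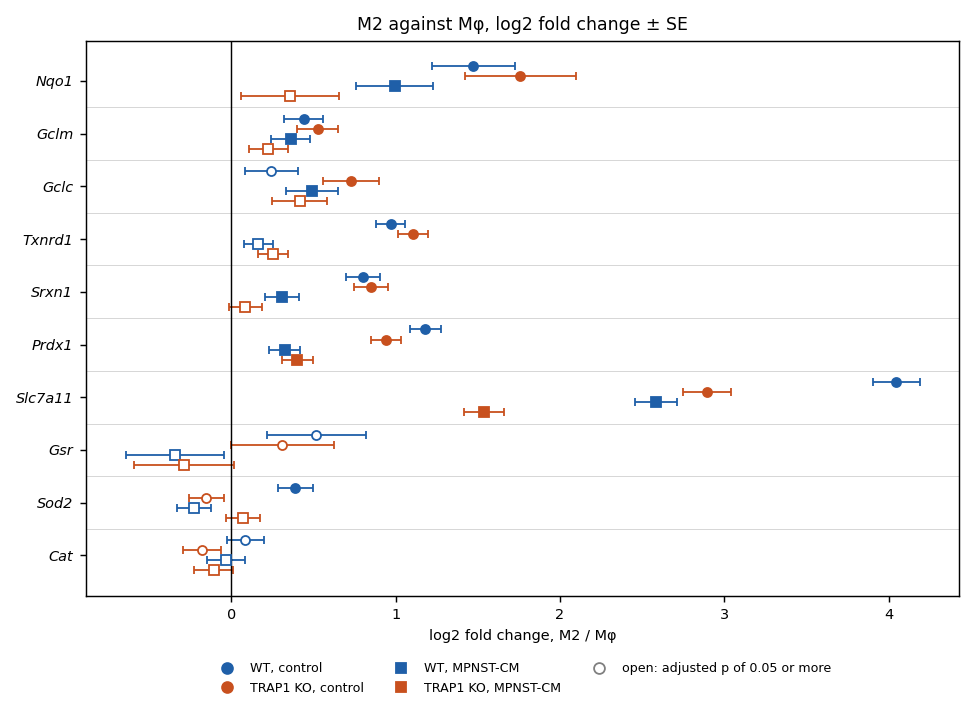
Log2 fold change of M2 against Mφ (x axis) for the 10 genes (y axis), in WT (blue) and TRAP1 KO (orange), in control medium (circles) and MPNST-CM (squares), n = 3 per group, bars ± SE, filled where the adjusted p was under 0.05. Slc7a11 lies farthest to the right in all 4 comparisons, at 4.05 in WT and 2.90 in TRAP1 KO in control medium, and most squares lie left of the circles.

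The second comparison asked how MPNST-CM changed the levels. In WT Mφ 5 genes rose and 1 fell, against 21.2% of all genes changed, 11.3% higher and 9.96% lower. Slc7a11 was 2.13-fold higher (1.09 ± 0.16, adjusted p = 9.2e-06), Nqo1 rose (0.80 ± 0.25, adjusted p = 0.0249), and Sod2 (0.52 ± 0.10, adjusted p = 0.0006), Txnrd1 (0.43 ± 0.09, adjusted p = 0.00084) and Srxn1 (0.43 ± 0.10, adjusted p = 0.00328) rose less. Cat fell (-0.33 ± 0.12, adjusted p = 0.0383). In TRAP1 KO Mφ again 5 rose and 1 fell, with 32.9% of all genes changed, 14.8% higher and 18.1% lower. Slc7a11 was 3.99-fold higher (2.0 ± 0.15, adjusted p = 2.8e-11), Nqo1 (1.13 ± 0.35, adjusted p = 0.0141), Srxn1 (0.95 ± 0.10, adjusted p = 3.6e-08), Gclm (0.72 ± 0.12, adjusted p = 3.5e-05) and Txnrd1 (0.32 ± 0.09, adjusted p = 0.00783) rose, and Cat fell (-0.66 ± 0.12, adjusted p = 5.2e-05). Sod2 did not pass there (-0.21 ± 0.11, adjusted p = 0.129). The median over the 10 genes was 0.40 in WT Mφ and 0.42 in TRAP1 KO Mφ, against -0.02 and -0.04 over all genes. In WT Mφ, Nqo1 no longer passed without WT Mφ in control medium replicates 1 or 2, or WT Mφ in MPNST-CM replicates 2 or 3 (adjusted p from 0.0921 to 0.13). Cat no longer passed without WT Mφ in MPNST-CM replicates 1, 2 or 3, or WT Mφ in control medium replicates 2 or 3 (adjusted p from 0.0738 to 0.131). In TRAP1 KO Mφ, Nqo1 no longer passed without TRAP1 KO Mφ in MPNST-CM replicate 2, or TRAP1 KO Mφ in control medium replicate 3 (adjusted p from 0.0768 to 0.087). Txnrd1 no longer passed without TRAP1 KO Mφ in MPNST-CM replicate 3 (adjusted p = 0.0817). Without the 5 replicates that stood apart, Sod2 fell in TRAP1 KO Mφ (-0.23, adjusted p = 0.0361). On all 27 libraries Slc7a11 (1.21, adjusted p = 0.139) and Srxn1 (0.41, adjusted p = 0.38) did not pass in WT Mφ. The share of mitochondrial mRNA in TRAP1 KO Mφ was 2.20% to 2.44% in MPNST-CM and 3.13% to 3.60% in control medium, and its part was not tested.

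In M2 the changes in MPNST-CM were mostly decreases. In WT M2 none of the 10 rose and 4 fell, where 24.5% of all genes changed, 13.3% lower and 11.2% higher. Prdx1 was 1.9-fold lower (-0.92 ± 0.09, adjusted p = 1.7e-08), and Cat (-0.45 ± 0.12, adjusted p = 0.00449), Txnrd1 (-0.37 ± 0.09, adjusted p = 0.00236) and Slc7a11 (-0.37 ± 0.11, adjusted p = 0.0159) fell less. In TRAP1 KO M2 3 fell and 2 rose (36.8% of all genes changed, 20.2% lower and 16.7% higher). Prdx1 (-0.60 ± 0.09, adjusted p = 6.7e-06), Cat (-0.59 ± 0.12, adjusted p = 0.00018) and Txnrd1 (-0.53 ± 0.09, adjusted p = 2.8e-05) fell, while Slc7a11 (0.64 ± 0.12, adjusted p = 6.7e-05) and Gclm (0.42 ± 0.12, adjusted p = 0.00683) rose. Cat was thus lower in MPNST-CM in all 4 groups of cells in batch 1. On all 27 libraries Cat kept this direction but passed only in TRAP1 KO Mφ. It did not pass in WT Mφ (-0.32, adjusted p = 0.255), WT M2 (-0.40, adjusted p = 0.162) or TRAP1 KO M2 (-0.33, adjusted p = 0.171). The median over the 10 genes was -0.23 in WT M2 and -0.13 in TRAP1 KO M2, against -0.03 and -0.01 over all genes. In WT M2, Slc7a11 no longer passed without WT M2 in MPNST-CM replicate 1, or WT M2 in control medium replicates 2 or 4 (adjusted p from 0.125 to 0.242). Cat no longer passed without WT M2 in MPNST-CM replicate 1, or WT M2 in control medium replicate 3 (adjusted p from 0.0565 to 0.0998). Without the 5 replicates that stood apart, Slc7a11 did not pass in WT M2 (-0.21, adjusted p = 0.14) and Nqo1 rose there (0.50, adjusted p = 0.03). Srxn1 then rose in TRAP1 KO M2 (0.18, adjusted p = 0.0326). The share of mitochondrial mRNA was lower in M2 in MPNST-CM (3.00% to 4.54%) than in M2 in control medium, and its part was not tested. With the second batch added, the rise of Slc7a11 in TRAP1 KO M2 turned to a difference of -0.55, adjusted p = 0.409. With batch as a covariate it was -0.24, adjusted p = 0.754. Without the covariate, Gclm (0.08, adjusted p = 0.83) and Prdx1 (-0.37, adjusted p = 0.0701) also did not pass there, and Txnrd1 alone passed. The batch 2 MPNST-CM library from these cells was set against batch 1 libraries scaled together with it. Slc7a11 was 24.7 against 48.9 to 59.6 CPM, and Gclm 45.6 against 52.5 to 65.0 CPM. Prdx1 was 2465 against 1709 to 1887 CPM, and Cat 302 against 161 to 205 CPM. Nqo1 and Srxn1 lay within the batch 1 range.

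**Figure D3:**
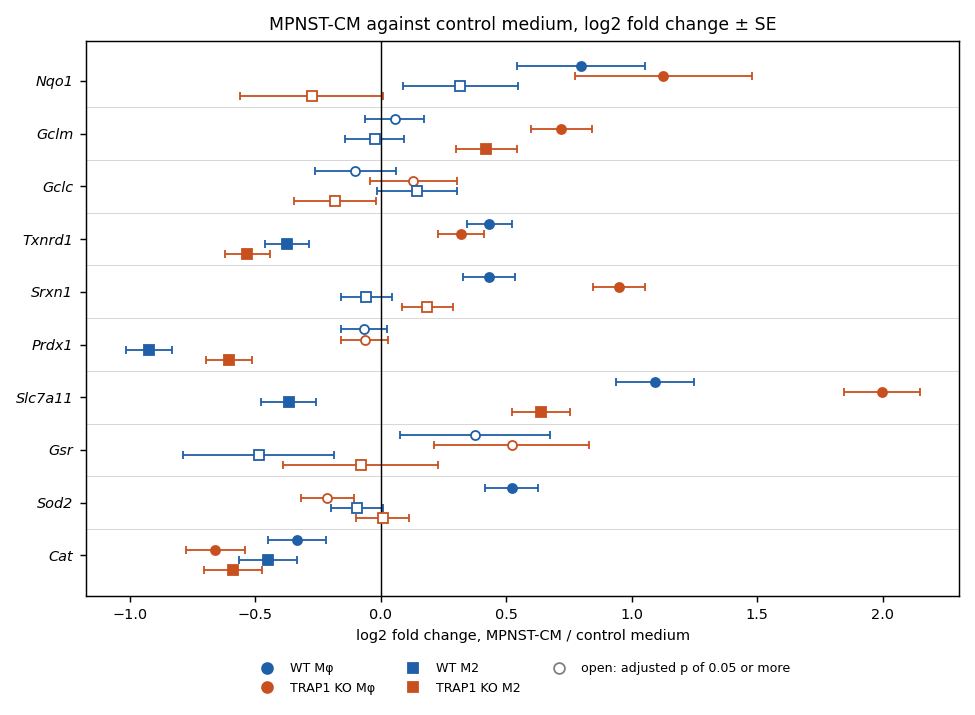
Log2 fold change of MPNST-CM against control medium (x axis) for the 10 genes (y axis), in WT (blue) and TRAP1 KO (orange) Mφ (circles) and M2 (squares), n = 3 per group, bars ± SE, filled where the adjusted p was under 0.05. Slc7a11 lies near 2 in TRAP1 KO Mφ and at -0.37 in WT M2, and Cat lies left of 0 in all 4.

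The third comparison asked which levels differed between TRAP1 KO and WT macrophages. Nqo1 and Txnrd1 were lower in TRAP1 KO in all 4 settings. In Mφ in control medium 5 of the 10 genes were lower and none higher, against 16.6% of all genes changed, 7.97% lower and 8.64% higher. Nqo1 was 3.76-fold lower (-1.91 ± 0.33, adjusted p = 9.7e-05), followed by Gclc (-0.86 ± 0.17, adjusted p = 0.00052), Gclm (-0.74 ± 0.12, adjusted p = 6.1e-05), Txnrd1 (-0.69 ± 0.09, adjusted p = 3.3e-06) and Srxn1 (-0.37 ± 0.10, adjusted p = 0.0142). In M2 in control medium 7 were lower and none higher (16.4% of all genes changed, 7.87% lower and 8.56% higher). Nqo1 (-1.62 ± 0.26, adjusted p = 5.3e-05) and Slc7a11, 2.28-fold lower (-1.19 ± 0.12, adjusted p = 2.8e-08), had the largest differences among the 10, followed by Gclm (-0.66 ± 0.12, adjusted p = 0.0003), Txnrd1 (-0.55 ± 0.09, adjusted p = 7.1e-05), Prdx1 (-0.48 ± 0.09, adjusted p = 0.00058), Srxn1 (-0.32 ± 0.10, adjusted p = 0.0336) and Sod2 (-0.30 ± 0.11, adjusted p = 0.0485). In Mφ in control medium, Srxn1 no longer passed without TRAP1 KO Mφ in control medium replicate 1, or WT Mφ in control medium replicates 2 or 3 (adjusted p from 0.0704 to 0.0817). In M2 in control medium, Srxn1 no longer passed without TRAP1 KO M2 in control medium replicates 1 or 3, or WT M2 in control medium replicate 2 (adjusted p from 0.0712 to 0.21). Sod2 no longer passed without TRAP1 KO M2 in control medium replicates 1 or 3, or WT M2 in control medium replicates 2, 3 or 4 (adjusted p from 0.0904 to 0.199). Without the 5 replicates that stood apart, Prdx1 was lower (-0.22, adjusted p = 0.0188) and Sod2 higher (0.28, adjusted p = 0.0206) in TRAP1 KO Mφ. Gclc (-0.38, adjusted p = 0.00793) and Cat (-0.19, adjusted p = 0.0457) were then lower in TRAP1 KO M2. Arg1, Mgl2 and Mrc1, markers of IL-4 polarization, were lower in the same TRAP1 KO M2 libraries by the values given above, and their part in these results was not tested.

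The batch 2 library of TRAP1 KO M2 in control medium bears on these values. It had 169 CPM of Slc7a11, against 32.4 to 35.8 CPM in the other 3 libraries of its group scaled together with it, and 464 CPM of Srxn1, against 147 to 173 CPM. With the second batch added, the difference between TRAP1 KO and WT M2 in control medium was -0.21, adjusted p = 0.784 for Slc7a11 and 0.22, adjusted p = 0.616 for Srxn1, and 3 of the 10 genes passed, Nqo1, Txnrd1 and Prdx1. Of all genes 8.29% then passed, from 16.4%. With batch as a covariate the difference was -0.61, adjusted p = 0.401 for Slc7a11 and -0.06, adjusted p = 0.89 for Srxn1, and 4 of the 10 passed, where 8.35% of all genes passed.

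In MPNST-CM 5 genes were lower and 1 higher in TRAP1 KO Mφ, where 38.2% of all genes changed, 19.2% lower and 19.1% higher. Nqo1 (-1.58 ± 0.27, adjusted p = 4e-05), Txnrd1 (-0.80 ± 0.09, adjusted p = 6.6e-08), Gclc (-0.63 ± 0.17, adjusted p = 0.00395), Sod2 (-0.50 ± 0.10, adjusted p = 0.00041) and Prdx1 (-0.23 ± 0.09, adjusted p = 0.0468) were lower, and Slc7a11 was 1.82-fold higher (0.87 ± 0.13, adjusted p = 8.4e-06). On all 27 libraries Slc7a11 (0.84, adjusted p = 0.215) and Prdx1 (-0.25, adjusted p = 0.205) did not pass there, though neither group holds a batch 2 library. The other 4 passed, where 22.6% of all genes passed. In M2 in MPNST-CM 4 were lower and none higher (34% of all genes changed, 16.8% lower and 17.2% higher). These were Nqo1, 4.65-fold lower (-2.22 ± 0.26, adjusted p = 1.2e-07), Txnrd1 (-0.71 ± 0.09, adjusted p = 5.5e-07), Gclc (-0.70 ± 0.16, adjusted p = 0.0013) and Cat (-0.33 ± 0.12, adjusted p = 0.0286). In Mφ in MPNST-CM, Prdx1 no longer passed without WT Mφ in MPNST-CM replicates 1 or 2, or TRAP1 KO Mφ in MPNST-CM replicates 1 or 3 (adjusted p from 0.0598 to 0.264). In M2 in MPNST-CM, Cat no longer passed without TRAP1 KO M2 in MPNST-CM replicates 1 or 3, or WT M2 in MPNST-CM replicates 2 or 3 (adjusted p from 0.0836 to 0.149). Without WT M2 in MPNST-CM replicate 1, Sod2 (-0.36, adjusted p = 0.0124), Slc7a11 (-0.34, adjusted p = 0.0259) and Prdx1 (-0.31, adjusted p = 0.0113) also passed in that comparison, all lower in TRAP1 KO. Without all 5 replicates that stood apart 8 passed, all lower, where 40.6% of all genes passed. The added ones were Sod2 (-0.37, adjusted p = 0.00022), Slc7a11 (-0.35, adjusted p = 0.00676), Prdx1 (-0.32, adjusted p = 6.6e-05) and Srxn1 (-0.24, adjusted p = 0.0105). In Mφ in MPNST-CM, without these 5, Prdx1 did not pass (-0.12, adjusted p = 0.194) and Srxn1 was higher in TRAP1 KO (0.24, adjusted p = 0.0223). In MPNST-CM the share of mitochondrial mRNA was 2.20% to 2.44% in TRAP1 KO Mφ against 2.90% to 2.97% in WT Mφ. In M2 it was 3.00% to 3.23% against 3.54% to 4.54%. The IL-4 markers Arg1 (-1.47 ± 0.19), Mgl2 (-1.22 ± 0.13) and Retnla (-0.49 ± 0.14) were lower and Mrc1 (0.31 ± 0.07) higher in TRAP1 KO M2 in MPNST-CM. In Mφ in MPNST-CM Mrc1 (1.02 ± 0.07) and Mgl2 (2.96 ± 0.24) were higher in TRAP1 KO. The part of these in the results was not tested. The median over the 10 genes was -0.34 and -0.24 in Mφ and -0.50 and -0.21 in M2, in control medium and MPNST-CM respectively, against 0.02 to 0.05 over all genes. Where none of the 10 passed in one direction in these 12 comparisons, DESeq2 also called 0, and at an unadjusted p under 0.05 edgeR gave 0 apart from Sod2, higher in TRAP1 KO Mφ in control medium and lower in WT M2 than in Mφ in MPNST-CM.

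**Figure D4:**
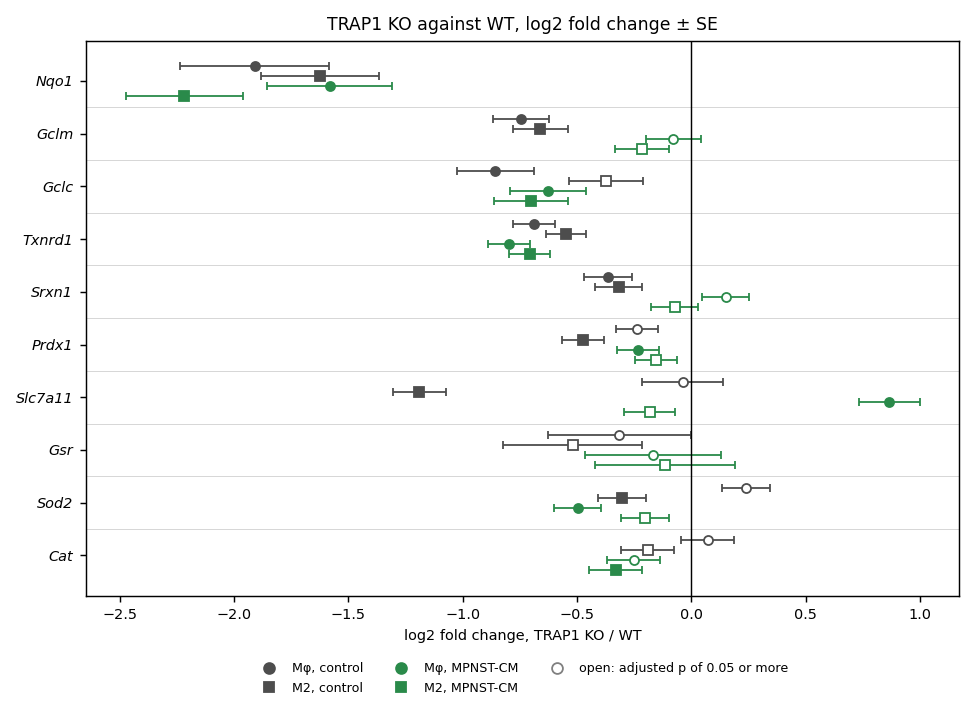
Log2 fold change of TRAP1 KO against WT (x axis) for the 10 genes (y axis), in control medium (grey) and MPNST-CM (green), Mφ (circles) and M2 (squares), n = 3 per group, bars ± SE, filled where the adjusted p was under 0.05. Nqo1 lies between -1.58 and -2.22 and Txnrd1 between -0.55 and -0.80, while Slc7a11 ranges from -1.19 in M2 in control medium to 0.87 in Mφ in MPNST-CM.

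An interaction term, the log2 response to MPNST-CM in TRAP1 KO minus that in WT, tested whether the genotypes responded differently. In Mφ 4 of the 10 genes passed, against 19.7% of all genes (8.17% higher and 11.5% lower). The response was higher in TRAP1 KO for Slc7a11 (0.90 ± 0.22, adjusted p = 0.00373), Gclm (0.66 ± 0.17, adjusted p = 0.00565) and Srxn1 (0.52 ± 0.15, adjusted p = 0.0119) and lower for Sod2 (-0.74 ± 0.15, adjusted p = 0.00054). In M2 Slc7a11 passed (1.01 ± 0.16, adjusted p = 3.4e-05), against 20.2% of all genes (9.36% higher and 10.8% lower). For Nqo1 the difference in response was 0.33 ± 0.43, adjusted p = 0.688 in Mφ and -0.59 ± 0.37, adjusted p = 0.293 in M2, and for Txnrd1 -0.11 ± 0.13, adjusted p = 0.632 and -0.16 ± 0.13, adjusted p = 0.438. Neither gene passed, and the 95% interval of the difference for Nqo1, from -0.52 to 1.18 in Mφ and from -1.31 to 0.12 in M2, holds the value of Slc7a11 in Mφ and not that in M2. Without the 5 replicates that stood apart, 4 genes passed in M2, where 26.5% of all genes passed: Slc7a11, Gclm (0.54, adjusted p = 0.00368), Nqo1 (-0.78, adjusted p = 0.0417) and Cat (-0.30, adjusted p = 0.0421).

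The response in M2 minus that in Mφ was tested in the same way. In WT 5 genes passed, all with a lower response in M2, where 12.1% of all genes passed, 6.91% lower and 5.23% higher: Slc7a11 (-1.46 ± 0.19, adjusted p = 6.8e-06), Prdx1 (-0.86 ± 0.13, adjusted p = 4.8e-05), Txnrd1 (-0.81 ± 0.13, adjusted p = 6.8e-05), Sod2 (-0.62 ± 0.15, adjusted p = 0.00577) and Srxn1 (-0.49 ± 0.15, adjusted p = 0.0259). In TRAP1 KO 5 genes passed, again all lower in M2, against 11.5% of all genes, 6.01% lower and 5.48% higher: Nqo1 (-1.40 ± 0.45, adjusted p = 0.0438), Slc7a11 (-1.36 ± 0.19, adjusted p = 9.4e-06), Txnrd1 (-0.85 ± 0.13, adjusted p = 2.6e-05), Srxn1 (-0.76 ± 0.15, adjusted p = 0.00056) and Prdx1 (-0.54 ± 0.13, adjusted p = 0.00553). Txnrd1 shows the pattern most plainly, rising in MPNST-CM in Mφ (0.43 in WT and 0.32 in TRAP1 KO) and falling in M2 (-0.37 and -0.53). These interactions and the comparisons above use the same groups, so they are not separate evidence. In WT, Srxn1 no longer passed without WT Mφ in control medium replicate 1, or WT Mφ in MPNST-CM replicate 1, or WT M2 in MPNST-CM replicate 1, or WT M2 in control medium replicates 2 or 3 (adjusted p from 0.0569 to 0.153). It also did not pass without the 5 replicates that stood apart (-0.20, adjusted p = 0.291). In TRAP1 KO, Nqo1 no longer passed without TRAP1 KO Mφ in control medium replicates 1 or 3, or TRAP1 KO M2 in MPNST-CM replicates 1 or 3, or TRAP1 KO Mφ in MPNST-CM replicates 2 or 3, or TRAP1 KO M2 in control medium replicate 2 (adjusted p from 0.0647 to 0.166). With the second batch added, edgeR called 0 of the 10 genes for the interaction of genotype and medium, in Mφ (2 at an unadjusted p under 0.05) and in M2 (1). Of all genes 4.76% then passed in Mφ and 1.31% in M2.

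Gsr passed in 0 of the 16 comparisons and interactions with edgeR (also 0 at an unadjusted p under 0.05, and 0 with DESeq2), with log2 differences from -0.86 to 0.52 and standard errors of 0.30 to 0.44. With the compared groups alone in the fit it passed in 3. These were MPNST-CM in WT M2 (-0.48, adjusted p = 0.0269), MPNST-CM in TRAP1 KO Mφ (0.57, adjusted p = 0.0242) and M2 against Mφ in WT in control medium (0.51, adjusted p = 0.0159). Without WT Mφ in MPNST-CM replicate 1 it passed in the interaction of IL-4 and medium in WT (-1.17, adjusted p = 0.0313). Across the 24 libraries Nqo1 and Txnrd1 had the most similar log2 levels among the 10 (Pearson r = 0.90), followed by Srxn1 and Slc7a11 (0.87) and Gclc and Txnrd1 (0.82). The lowest r was that of Srxn1 and Cat (-0.37), though both had their highest mean in WT M2 in control medium. These are descriptions, since the libraries share groups. Of 8204 genes with a mean of at least 10 CPM, the closest to Nqo1 was Psmd14 (r = 0.93), to Txnrd1 Emp2 (0.94), to Srxn1 Adam8 (0.96), to Prdx1 Syngr2 (0.95), to Slc7a11 Gm45700 (0.98), to Cat Abr (0.92), to Gclc Golim4 (0.88), to Gclm Ibtk (0.87), to Sod2 Brix1 (0.83) and to Gsr Pfdn4 (0.79).

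The regulators of the pathway were tested as a list of 9 (Nfe2l2, Keap1, Cul3, Bach1, Nfe2l1, Mafg, Mafk, Maff and Sqstm1). In M2 against Mφ in control medium 2 were higher and 2 lower in WT, and 1 higher and 4 lower in TRAP1 KO, where 37.2% and 28.5% of all genes passed. Keap1, which holds NRF2 back, was lower in M2 in WT (-0.68 ± 0.20) and in TRAP1 KO (-0.63 ± 0.20), and Nfe2l1, a relative of NRF2, was higher (0.66 ± 0.08 and 0.46 ± 0.08). In TRAP1 KO against WT, 4 regulators were higher and none lower in Mφ in control medium and also in Mφ in MPNST-CM, 1 was higher in M2 in control medium and 5 in M2 in MPNST-CM. Of all genes 16.6%, 38.2%, 16.4% and 34% passed in these comparisons. Nfe2l2 itself was higher in TRAP1 KO Mφ, by 0.41 ± 0.08 in control medium and 0.49 ± 0.08 in MPNST-CM, the opposite direction to Nqo1 and Txnrd1. In M2 it was higher in MPNST-CM (0.29 ± 0.08) and did not pass in control medium (-0.13 ± 0.08, adjusted p = 0.333). Bach1, which can occupy the same sites, was higher in TRAP1 KO Mφ in MPNST-CM (0.53 ± 0.09), in M2 in control medium (0.38 ± 0.09) and in M2 in MPNST-CM (0.49 ± 0.09). In Mφ in control medium the largest differences that passed were Mafk (0.46 ± 0.14), Nfe2l2 and Sqstm1 (0.28 ± 0.07). Bach1 was not among these largest differences, though its mean there was also higher in TRAP1 KO than in WT. In MPNST-CM the largest was Nfe2l1, higher in TRAP1 KO by 0.90 ± 0.08 in Mφ and 0.55 ± 0.07 in M2. The part of these regulators in the other results was not tested. MPNST-CM raised Mafg, a small MAF partner, in all 4 groups of cells, by 0.29 ± 0.11 in Mφ of WT mice and 0.81 ± 0.11 in those of TRAP1 KO mice, and by 0.39 ± 0.11 in M2 of WT mice and 0.66 ± 0.11 in those of TRAP1 KO mice.

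Other NRF2 targets and suppliers of NADPH, the reductant of these enzymes, were tested as a list of 12. In control medium 9 of them were higher and none lower in M2 than in Mφ in WT (median log2 fold change 0.57, against -0.03 over all genes tested, of which 37.2% passed), and 7 higher and none lower in TRAP1 KO (0.35, against -0.03, with 28.5% passing). Ephx1, an epoxide hydrolase, rose by 1.61 ± 0.11 in WT and 1.34 ± 0.11 in TRAP1 KO, and Tkt, transketolase of the pentose phosphate pathway, by 0.95 ± 0.12 and 1.04 ± 0.12. MPNST-CM lowered Ephx1 in all 4 groups of cells, by -1.62 ± 0.13 in WT Mφ to -2.48 ± 0.12 in TRAP1 KO M2. It raised Hmox1, heme oxygenase, in both genotypes, by 0.82 ± 0.15 in WT and 0.64 ± 0.15 in TRAP1 KO among Mφ and by 0.86 ± 0.15 in WT and 0.53 ± 0.15 in TRAP1 KO among M2. In TRAP1 KO against WT, 4 were lower and 2 higher in Mφ in control medium, 5 lower and 2 higher in Mφ in MPNST-CM, 4 lower and 1 higher in M2 in control medium and 7 lower and 1 higher in M2 in MPNST-CM. The shares of all genes that passed were 16.6%, 38.2%, 16.4% and 34%, in this order. Tkt was lower in TRAP1 KO in MPNST-CM, in Mφ (-0.72 ± 0.12) and in M2 (-1.28 ± 0.12), and did not pass in control medium (-0.06 ± 0.12, adjusted p = 0.837 and 0.03 ± 0.12, adjusted p = 0.889). Taldo1, transaldolase, was lower in TRAP1 KO in both media, in Mφ by -0.54 ± 0.08 in control medium and -0.28 ± 0.08 in MPNST-CM and in M2 by -0.59 ± 0.08 and -0.29 ± 0.08.

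Of 18 other glutathione genes 17 were tested. MPNST-CM raised 5 and lowered 3 in WT Mφ, raised 2 and lowered 3 in WT M2, and raised 7 in TRAP1 KO cells, with 5 lowered in Mφ and 3 in M2. Of all genes 21.2% and 24.5% changed in WT Mφ and M2 and 32.9% and 36.8% in TRAP1 KO Mφ and M2. Mgst1, a membrane glutathione transferase, fell in both genotypes, by -1.43 ± 0.20 in WT Mφ, -2.10 ± 0.19 in WT M2, -1.56 ± 0.19 in TRAP1 KO M2 and -0.71 ± 0.19 in TRAP1 KO Mφ. Gpx3, the secreted glutathione peroxidase, fell in TRAP1 KO Mφ (-2.81 ± 0.20), TRAP1 KO M2 (-2.81 ± 0.23) and WT Mφ (-1.07 ± 0.19) and did not pass in WT M2 (-0.51 ± 0.25, adjusted p = 0.156), where it was 3.33 ± 0.535 CPM in control medium. In control medium Gpx3 was higher in TRAP1 KO than in WT, in Mφ (1.32 ± 0.17) and in M2 (1.80 ± 0.21). In MPNST-CM it did not pass (-0.42 ± 0.22, adjusted p = 0.134 and -0.50 ± 0.28, adjusted p = 0.188). All 13 other thioredoxin and peroxiredoxin genes were tested. In TRAP1 KO against WT, 2 were higher and none lower in Mφ in control medium, 2 higher and 2 lower in M2 in control medium, and 4 higher and 3 lower in both Mφ and M2 in MPNST-CM. Of all genes 16.6%, 16.4%, 38.2% and 34% passed. Txnip, which binds and inhibits thioredoxin, was higher in TRAP1 KO in MPNST-CM, by 1.94 ± 0.13 in Mφ and 1.90 ± 0.13 in M2, as was the peroxiredoxin Prdx5, by 0.87 ± 0.08 and 1.02 ± 0.08. In control medium Txnip did not pass (0.27 ± 0.12, adjusted p = 0.146 in Mφ and 0.14 ± 0.12, adjusted p = 0.489 in M2), and Prdx5 was higher in Mφ (0.24 ± 0.08). Of 8 genes for superoxide production and other dismutases 7 were tested. Cybb, the catalytic subunit of the phagocyte NADPH oxidase, fell in MPNST-CM in all 4 groups of cells, by -1.36 ± 0.07 in Mφ of WT mice and -2.24 ± 0.07 in those of TRAP1 KO mice, and by -1.64 ± 0.07 in M2 of WT mice and -2.29 ± 0.07 in those of TRAP1 KO mice. Its partner Cyba was higher in M2 than in Mφ in control medium in WT (1.22 ± 0.08) and in TRAP1 KO (0.72 ± 0.08).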

How the data were processed

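Libraries were made with the QuantSeq 3′ mRNA-seq forward kit and sequenced on a NextSeq500. The authors trimmed reads (Trimmomatic, FastQC), mapped them with HISAT2, removed reads of mapping quality under 20 with SAMtools and deposited raw counts per gene from featureCounts. The labels name genome build mm39 and the methods mm10. Versions, annotation and strand setting are not given in the sources used here, so reads of overlapping or antisense genes may be merged. Of 32 columns in the table, 5 could be matched to no sample and stayed unused. The kit reads the 3′ end, so levels are compared within a gene, not between genes.

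The 24 batch 1 libraries were fitted together with edgeR 4.0.16 (limma 3.58.1, R 4.3.3): TMM, filterByExpr, robust quasi-likelihood tests, and p-values adjusted by Benjamini-Hochberg over 13614 genes at 0.05. The scripts were tested on simulated data, where the recovery of changed genes fell just short of the criterion first set, which was then replaced by criteria on sign, effect size and false calls. No replicates agreed within sampling noise: within groups, squared differences in counts were 2.11 to 37.4 times what it gives (chi-square per degree of freedom, 24 pairs). In 5 groups both pairs with replicate 1 exceeded the other pair at least 4 times, and the fit was repeated without these 5 libraries, an alternative chosen after seeing the data. A level under 3 counts, 0.323 to 0.451 CPM, was taken as not detectable. That floor covers counting error only.

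The 10 genes, the other lists and the comparisons were chosen with earlier results of these data known. All 10 genes are named. From each other list, at most 3 genes per comparison could be named, ranked by size of change, if they passed and their higher group mean reached 10 CPM. Not all of these are named. For a named gene, values are also given in some comparisons where it ranked lower or did not pass. The most similar gene was sought by Pearson r of log2 CPM with a prior count of 2. The fit was repeated with RLE (median-of-ratios) scaling, with DESeq2 1.42.0, unfiltered, on all 27 libraries without and with a batch term, blocked on replicate number, on the compared groups alone, and without each library. The results of these repeats were not examined for the other lists.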

Additional observations from a re-analysis of the deposited data

Results flagged for a closer look

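In 15 cases an effect differed between groups by the test of the difference itself (edgeR's interaction term, adjusted p under 0.05, values on the log2 scale). The response to MPNST-CM in TRAP1 KO minus that in WT was 0.66 for Gclm, 0.52 for Srxn1, 0.90 for Slc7a11 and -0.74 for Sod2 in Mφ, and 1.01 for Slc7a11 in M2. The response in M2 minus that in Mφ was -0.81 for Txnrd1, -0.49 for Srxn1, -0.86 for Prdx1, -1.46 for Slc7a11 and -0.62 for Sod2 in WT. In TRAP1 KO it was -1.40 for Nqo1, -0.85 for Txnrd1, -0.76 for Srxn1, -0.54 for Prdx1 and -1.36 for Slc7a11.

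With the second batch, 3 groups hold 4 libraries, and in 4 of 30 cases (10 genes in 3 groups) 1 library lay far from the rest by Dixon's criterion, where chance gives about 1.5. In TRAP1 KO M2 in control medium the batch 2 library had 464 CPM of Srxn1 and 169 CPM of Slc7a11, both above the other 3 libraries. In WT Mφ in control medium replicate 2 had 96.3 CPM of Txnrd1 and replicate 1 had 270.4 CPM of Cat, both below the other 3.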

How the results depend on the processing

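Of 80 calls among the 10 genes in 12 comparisons and 4 interactions, 63 held under every alternative within batch 1 and 43 under every alternative. Median-of-ratios size factors changed no call of the 160, and DESeq2 added 1. Adding the 3 libraries of batch 2 had the largest effect of the alternatives on the number of calls. With all 27 libraries, and then with batch as a covariate, the genes passing in MPNST-CM against control medium were 3 and 3 (from 6) in WT Mφ, 1 and 2 (from 4) in WT M2 and 1 and 1 (from 5) in TRAP1 KO M2. In TRAP1 KO against WT they were 3 and 4 (from 7) in M2 in control medium and 4 and 4 (from 6) in Mφ in MPNST-CM. In M2 against Mφ in MPNST-CM they were 2 and 2 (from 6) in WT, 2 also with the compared groups alone, and 1 and 1 (from 2) in TRAP1 KO. For the interaction of genotype and medium edgeR called 0 and 1 (from 4) in Mφ, with 2 and 2 at an unadjusted p under 0.05, and 0 and 0 (from 1) in M2, with 1 and 1. For that of IL-4 and medium they were 2 and 2 (from 5) in WT and 3 and 3 (from 5) in TRAP1 KO. The share of all genes that passed fell too, given here in the same order. For MPNST-CM it was 6.98% and 9.23% (from 21.2%), 7.39% and 8.82% (from 24.5%) and 6.02% and 7.20% (from 36.8%). For TRAP1 KO against WT it was 8.29% and 8.35% (from 16.4%), and 22.6% and 24.0% (from 38.2%). For M2 against Mφ it was 8.77% and 10.0% (from 24.9%), 15.7% with the compared groups alone, and 3.46% and 3.90% (from 11.2%). For the interaction of genotype and medium it was 4.76% and 5.66% (from 19.7%) in Mφ and 1.31% and 1.96% (from 20.2%) in M2. For that of IL-4 and medium it was 1.40% and 2.38% (from 12.1%) in WT and 2.97% and 3.53% (from 11.5%) in TRAP1 KO. The direction turned for Slc7a11 in TRAP1 KO M2 in MPNST-CM against control medium (-0.55, and -0.24 with the covariate), for Srxn1 in TRAP1 KO against WT M2 in control medium (0.22) and for Slc7a11 in the interaction of genotype and medium in M2 (-0.24).

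Leaving out 1 library at a time, the genes passing ranged from 2 to 4 for MPNST-CM in WT M2 (2 without WT M2 in MPNST-CM replicate 1), from 3 to 7 for TRAP1 KO against WT M2 in MPNST-CM (7 without the same library), from 3 to 5 for M2 against Mφ in WT in MPNST-CM (3 without WT Mφ in MPNST-CM replicate 3) and from 1 to 2 for the interaction of genotype and medium in M2 (2 without WT M2 in MPNST-CM replicate 1, TRAP1 KO M2 in control medium replicate 1 or TRAP1 KO M2 in MPNST-CM replicate 2). The share of all genes is not given for these fits. Leaving out together the 5 replicates that stood apart, 136 of 160 values kept their side of the threshold, 5 no longer passed and 19 passed in addition, and the genes passing were 8, from 4, for TRAP1 KO against WT M2 in MPNST-CM and 4, from 1, for the interaction of genotype and medium in M2. Of all genes 40.6% (from 34%) and 26.5% (from 20.2%) passed there. The cause of these changes was not tested.

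The replicate numbers were not used as pairs in the main fit, and the sources do not say what they mark. Deviations from the group means correlated by 0.11 on average over 77 pairs of libraries with the same number (from -0.21 to 0.52) and by -0.05 over 175 pairs with other numbers (from -0.38 to 0.30). All 5 libraries that stood apart carry number 1. Whether a number marks a shared animal or culture was not tested. In batch 1, number 4 occurs only in WT M2 in control medium, so under the block that library does not inform its group's mean. Blocking on the replicate number, the genes passing in TRAP1 KO against WT M2 in control medium were 6, from 7, without Sod2 (adjusted p = 0.0586), and in TRAP1 KO Mφ in MPNST-CM against control medium 7, from 6, with Sod2 (0.0487). Of all genes 14.6% (from 16.4%) and 35.8% (from 32.9%) passed in these. Under the block Slc7a11 no longer passed for MPNST-CM in WT M2 (adjusted p = 0.0699), and there passed in addition Prdx1 in TRAP1 KO against WT Mφ in control medium (0.0205), Cat in the same comparison in MPNST-CM (0.0207) and, in M2 against Mφ in MPNST-CM, Sod2 in WT (0.0374) and Gclc in TRAP1 KO (0.0268). No count moved by more than 1.5 times under the block.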
